A study of Mus musculus with 15 samples.

Results

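Day 12 was compared with day 5 after whole-body protons in left-ventricular cardiomyocytes of male C57Bl/6NT mice aged 8 to 9 months, isolated with collagenase and selected for calcium tolerance. Every animal of both groups had received 90 cGy of 1 GeV protons, so the 2 groups differ in the time since exposure and no sham array enters the difference. Of the 15 arrays of the series, 5 belong here: 2 of day 12 and 3 of day 5, chosen by the day in the sample titles. The design text of the series gives other days, which are not used here. The labels name no engineered allele. Nothing in them ties an array to an animal, so the p-values below measure only a spread between samples, which may be technical. That spread is pooled over 14 samples in 6 groups of the series, sham included, and not taken from day 12 and day 5 alone. The labels also give no hour of the day at which the hearts were taken, for either group.

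Signals on the log2 scale were available for 34760 probe sets, and with so few arrays it is their number that limits precision. Day 5 replicates 1 and 2 held nearly the same values, with an SD of 0.0768 for their log2 differences, against 0.222 to 0.527 for the other pairs among the 105 pairs of arrays. They were averaged as 1 sample, which left 2 samples of day 12 against 2 of day 5, and their separate values are printed below. The day 12 arrays differed from each other by more than they differed from the day 5 arrays: that SD was 0.422 between them and 0.264 to 0.334 over the 6 pairs of a day 12 and a day 5 array. In 448 genes the day 12 arrays lay more than 1 log2 unit apart, against 15 genes for the day 5 samples. All 14 ventricular cardiomyocyte markers were measured, with a median difference of -0.01, and 6 were above 0 and 8 below. Both day 12 arrays lay above all day 5 arrays in 1 and below them in 2, beside 11.4% and 12% of all genes. The lowest difference was that of Tcap, at -0.29. Myh6, the main myosin heavy chain of the adult mouse heart, had log2 signals of 11.84 and 12.03 at day 12, against 11.85, 11.84 and 11.88 at day 5.

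Most mammalian cells, cardiomyocytes included, run a circadian clock built as a feedback loop. The proteins of Arntl (BMAL1) and Clock bind E-boxes and switch on Per, Cry, Ciart, Nr1d1 and Dbp. The Per, Cry and Ciart proteins then oppose this pair, and the REV-ERB proteins of Nr1d1 and Nr1d2 repress Arntl and Nfil3 through ROR elements. Dbp, Tef and Hlf in turn activate genes that carry D-boxes, which Nfil3 represses. Arntl transcripts therefore peak at the opposite time of day to those of Dbp, Per3 and Nr1d1 in mouse heart.

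Promoters of 4 of these genes are shown because they hold the elements through which the loop is known to act and because both day 12 arrays lay outside the day 5 arrays for each of the 4 genes. They are RefSeq sequences of build GRCm38.p6 from 250 bases before to 50 after an annotated transcript start, printed 5′ to 3′ on the strand of the gene, with matched motifs in capitals. The motifs searched on both strands were CACGTG for the E-box, TTATGTAA or TTACGTAA for the D-box, and TAGGTCA or TGGGTCA for the ROR element. Ciart lies at chr3:95882179-95882478 on the minus strand, Per3 at chr4:151044616-151044915 on the minus strand, the second annotated promoter of Arntl at chr7:113207261-113207560 on the plus strand, and Nfil3 at chr13:52980990-52981289 on the minus strand.
Ciart: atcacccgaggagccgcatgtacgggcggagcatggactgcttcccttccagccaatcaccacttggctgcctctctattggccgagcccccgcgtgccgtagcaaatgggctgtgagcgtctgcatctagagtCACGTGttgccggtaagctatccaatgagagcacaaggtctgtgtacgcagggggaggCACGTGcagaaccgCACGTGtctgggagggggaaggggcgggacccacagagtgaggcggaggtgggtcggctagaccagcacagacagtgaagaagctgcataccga
Per3: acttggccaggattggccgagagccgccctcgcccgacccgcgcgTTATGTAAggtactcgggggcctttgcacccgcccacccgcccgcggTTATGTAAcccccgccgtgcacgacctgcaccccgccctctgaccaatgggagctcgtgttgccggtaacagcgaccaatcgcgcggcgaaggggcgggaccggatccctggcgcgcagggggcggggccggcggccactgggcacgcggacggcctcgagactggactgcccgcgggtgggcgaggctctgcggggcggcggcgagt
Arntl: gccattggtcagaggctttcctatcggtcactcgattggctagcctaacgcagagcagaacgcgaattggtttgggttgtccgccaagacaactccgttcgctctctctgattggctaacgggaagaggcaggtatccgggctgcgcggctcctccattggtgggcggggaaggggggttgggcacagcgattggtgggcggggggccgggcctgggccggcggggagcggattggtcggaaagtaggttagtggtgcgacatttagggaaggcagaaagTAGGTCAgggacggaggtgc
Nfil3: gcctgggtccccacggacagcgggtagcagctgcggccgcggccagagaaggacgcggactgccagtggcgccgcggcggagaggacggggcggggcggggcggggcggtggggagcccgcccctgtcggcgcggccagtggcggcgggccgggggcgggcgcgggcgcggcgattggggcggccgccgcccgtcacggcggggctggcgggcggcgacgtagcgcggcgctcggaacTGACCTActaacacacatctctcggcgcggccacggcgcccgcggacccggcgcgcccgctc
Ciart held 3 E-boxes, Per3 held 2 D-boxes, and Arntl and Nfil3 held 1 ROR element each, the one of Nfil3 on the reverse strand. Among the other core clock genes, single E-boxes stood in promoters of Per1, Cry1 and Bhlhe41, and promoters were available for 11 of the 13 measured. Of the clock output genes, Klf15 had 3 E-boxes, as many as Ciart, Tef had 1 in each of its 2 promoters, and Tspan4 had 1 in 1 of its 2. Fabp7, another clock output gene, had 1 ROR element. Its day 12 minus day 5 difference was 0.60, but -0.50 without day 12 replicate 2 and 1.70 without day 12 replicate 1. The first annotated promoter of Arntl held none of the motifs. Over all 32851 promoters of the table, 7.15% held an E-box, 1.06% a D-box and 6.45% a ROR element. Dbp and Nr1d1 had no match in this window. A match describes the letters and does not show binding.

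Over all 12102 genes tested, 0% (0 genes) differed between day 12 and day 5 at an adjusted p under 0.05 by limma with Benjamini-Hochberg adjustment. At an unadjusted p under 0.05 stood 302 genes, or 2.5%, of which 120 (0.992%) were higher and 182 (1.5%) lower at day 12. With no difference in any gene, 605 genes would be expected at that level, more than were found. Both day 12 arrays lay above all day 5 arrays in 11.4% of genes and below all of them in 12%. The lowest adjusted p was 0.146, shared by Arntl and Dbp, and Ciart followed at 0.426. All other genes stood at 0.9998 or above, so that the text below gives levels and differences without calling them changes. Differences were small for most genes, with a median absolute value of 0.0968 on the log2 scale, and 6 genes were more than 1 log2 unit higher and 10 more than 1 lower.

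**Figure D1:**
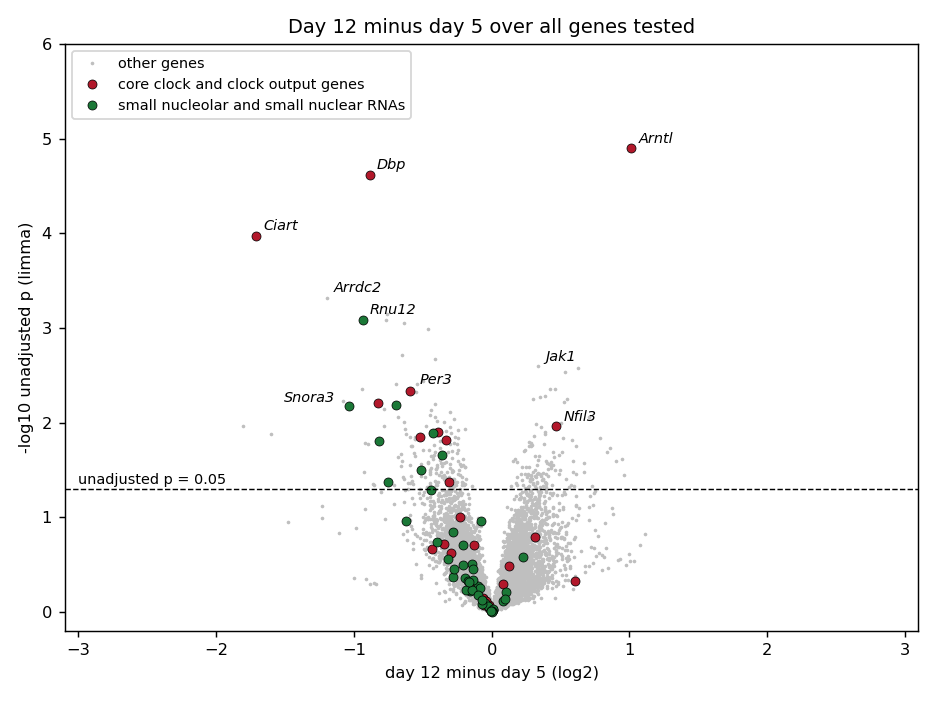
Each point is 1 of the 12102 genes, with the day 12 minus day 5 difference (log2) on the horizontal axis and -log10 of the unadjusted limma p on the vertical axis; the dashed line marks an unadjusted p of 0.05. Arntl on the right and Dbp and Ciart on the left stand above the other points, and the small RNAs (green) lie mostly left of 0.

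The clock genes that stood apart most did so in opposite directions. Arntl (chr7:113178471-113314126), the activator of the loop, had log2 signals of 7.27 and 7.16 at day 12, against 6.33, 6.30 and 6.08 at day 5. The groups did not overlap, the day 12 samples were the 2 highest and the day 5 samples the 2 lowest of the 14 samples of the series. The difference was 1.01 ± 0.14 (SE, limma, adjusted p = 0.146), or 2.02-fold higher at day 12. Dbp (chr7:45705100-45710203), an E-box target and D-box activator, had signals of 8.16 and 8.31 at day 12, against 9.22, 9.18 and 9.04 at day 5. Its difference was -0.89 ± 0.13 (SE, limma, adjusted p = 0.146), a level 0.541 times that of day 5.

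Ciart (chr3:95878500-95882257), which encodes a repressor of the BMAL1 and CLOCK pair and whose promoter carries the 3 E-boxes above, showed the largest difference of the clock genes. Its log2 signals were 5.27 and 4.52 at day 12, against 6.91, 6.90 and 6.30 at day 5, a difference of -1.71 ± 0.30 (SE, limma, adjusted p = 0.426). Both day 12 arrays were below every day 5 array, and a second probe set of the gene gave -1.40.

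Among the Period genes, repressors of the loop, Per2 had 5.32 and 5.69 at day 12, against 6.26, 6.26 and 6.40 at day 5 (difference -0.82 ± 0.25, SE). Per3, the gene with 2 D-boxes above, had 5.25 and 5.48 at day 12, against 6.01, 6.03 and 5.89 at day 5 (-0.59 ± 0.17). Neither gene overlapped between the groups. Per1 did, at 5.96 and 7.08 on the day 12 arrays, against 6.86, 6.88 and 7.03 on the day 5 arrays, so that its difference of -0.43 ± 0.33 came from replicate 1 of day 12.

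The second arm of the loop was lower for Nr1d1, which encodes REV-ERB alpha: 8.98 and 9.09 at day 12, against 9.51, 9.50 and 9.23 at day 5 (-0.33 ± 0.12). Nr1d2, for REV-ERB beta, had a difference of -0.13 ± 0.09 and Rora, an activator through the same element, of -0.04 ± 0.14. Bhlhe41, an E-box repressor, had 6.27 and 6.18 at day 12, against 7.02, 6.96 and 6.50 at day 5 (-0.52 ± 0.18), without overlap. Its paralogue Bhlhe40 overlapped, at -0.29 ± 0.24, as did Clock (0.13 ± 0.12), Cry1 (0.31 ± 0.21) and Cry2 (-0.06 ± 0.17).

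All 13 core clock genes on the array with a single symbol were measured. None passed the adjusted threshold, 6 stood at an unadjusted p under 0.05 (1 higher and 5 lower) beside 2.5% of all genes, and without overlap 1 gene was higher and 7 were lower, beside 11.4% and 12% of all genes. The median difference was -0.29, against 0.01 over all genes tested, and it was -0.23 without day 12 replicate 1 and -0.22 without day 12 replicate 2. A day 12 sample was the lowest of the 14 samples in 6 of the 13 genes, or 46.2%, beside 16.4% of all genes tested. With a score of endothelial, fibroblast and macrophage markers as covariate, Arntl, Dbp and Ciart passed the adjusted threshold (limma, lowest adjusted p = 0.0250), as did Rnu12, described below. Arntl and Dbp also passed with all 15 arrays kept separate, whereas without day 5 replicate 3 the lowest adjusted p was 0.885.

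**Figure D2:**
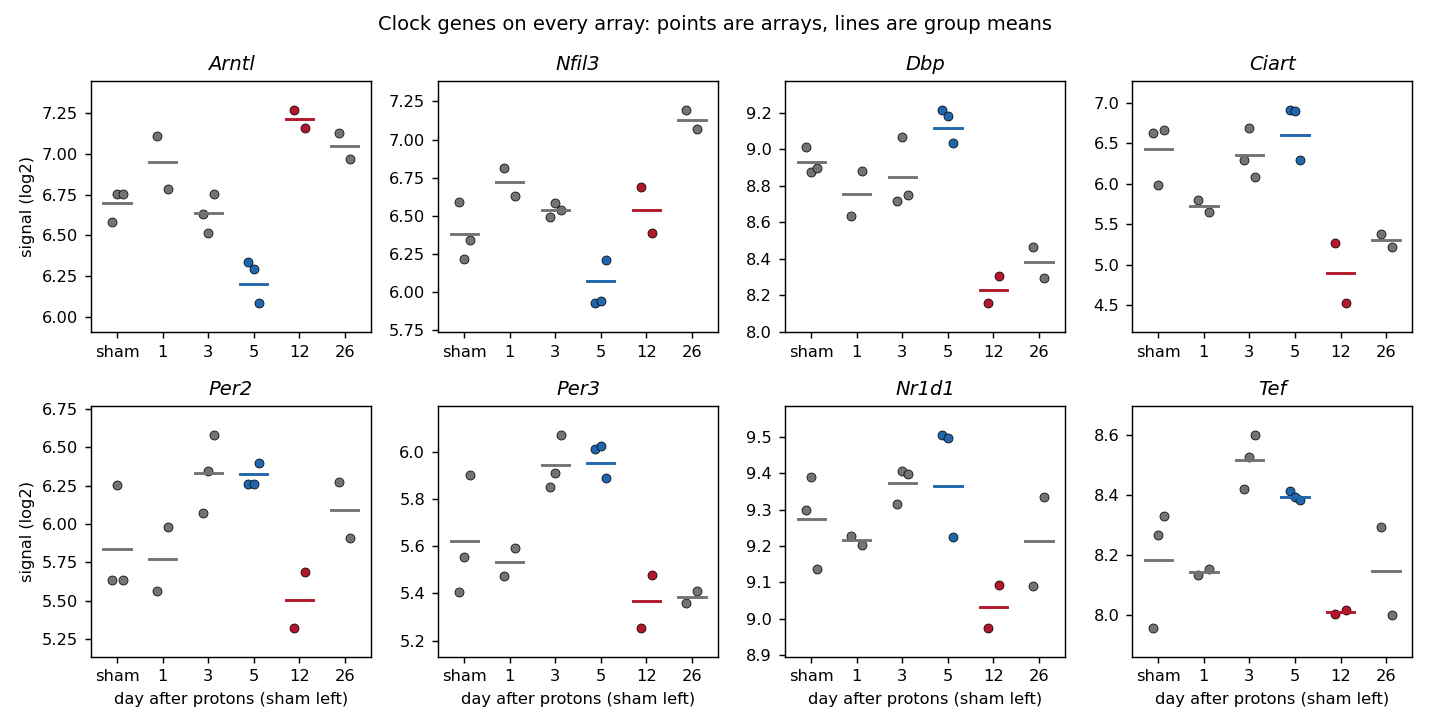
Log2 signals of 8 clock and clock output genes on every array of the series, with sham at the left and the days after protons in order; points are arrays, lines are group means, day 12 is red and day 5 blue. Arntl and Nfil3 are higher at day 12 than at day 5 and the other 6 genes lower, without overlap between those groups.

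Of the 13 clock output genes measured, 4 were at an unadjusted p under 0.05, 1 higher and 3 lower, beside 0.992% and 1.5% of all genes. Without overlap, 1 was higher, near the 11.4% of all genes, and 6 were lower, beside 12%. Nfil3, the D-box repressor with the ROR element above, had log2 signals of 6.69 and 6.39 at day 12, against 5.93, 5.94 and 6.21 at day 5 (0.47 ± 0.16, SE). Tef, a D-box activator like Dbp, had 8.00 and 8.02 at day 12, against 8.41, 8.40 and 8.38 at day 5 (-0.39 ± 0.13). Hlf, the third member of that family, overlapped and differed by -0.02 ± 0.17. Pdk4, a kinase that limits the entry of pyruvate into mitochondria, had 10.71 and 10.91 at day 12, against 11.11, 11.11 and 11.13 at day 5 (-0.31 ± 0.14). Usp2, a deubiquitinase, was lower on both day 12 arrays (-0.23 ± 0.13), and Klf15, a factor of cardiac metabolism, overlapped at 0.08 ± 0.12.

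The same genes on the other days show where the step from day 5 to day 12 lies. Mean log2 signals of Arntl were 6.70 in sham and 6.95, 6.63, 6.20, 7.21 and 7.04 at days 1, 3, 5, 12 and 26. For Ciart they were 6.43 in sham and 5.72, 6.36, 6.60, 4.89 and 5.30. For Dbp they were 8.93 in sham and 8.76, 8.85, 9.12, 8.23 and 8.38. Day 5 and day 12 thus held the 2 ends of the means for each of these 3 genes, and sham lay between them. Set against the step between days 1 and 3, which shares no array with it, the day 12 minus day 5 step differed by 1.33 ± 0.19 for Arntl (SE, limma, adjusted p = 0.0715) and by -2.34 ± 0.41 for Ciart (adjusted p = 0.157). For Dbp it differed by -0.97 ± 0.18 (adjusted p = 0.219). The lowest adjusted p of that test, 0.0508, belonged to Rnf144b (-1.46 ± 0.20), a ubiquitin ligase, and Pde7a, neither of them a clock gene. Over all genes that test called 0%.

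Small nucleolar RNAs guide chemical modification of ribosomal RNA, those of the H/ACA class (Snora) the change of uridine to pseudouridine and those of the C/D class (Snord) the methylation of ribose. Small Cajal body RNAs (Scarna) do the same for spliceosomal RNAs. Most are cut out of introns of host genes. Of 54 on the array, 40 were above the signal filter, and 32 of them were lower at day 12. Both day 12 arrays lay below all day 5 arrays in 16 and above in 1, Snord22, beside 12% and 11.4% of all genes. None passed the adjusted threshold, and 7 were at an unadjusted p under 0.05, all lower, beside 1.5% of all genes. The median difference was -0.14. It was -0.30 without day 5 replicate 3 and -0.10 without day 12 replicate 2.

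Snora3 (chr7:109520132-109520251) had log2 signals of 9.92 and 9.13 at day 12, against 10.80, 10.81 and 10.31 at day 5, a difference of -1.04 ± 0.32 (SE, limma), and its second probe set gave -0.68. Snora73b had 7.68 and 7.28 at day 12, against 8.30, 8.31 and 8.04 at day 5 (-0.69 ± 0.21). Scarna13 had 9.06 and 9.19 at day 12, against 9.77, 9.76 and 9.51 at day 5 (-0.51 ± 0.21). In all 3 the groups did not overlap, and day 5 replicate 3 was the nearest of the day 5 arrays to day 12. Snora44 (-0.82 ± 0.29), Snord14e (-0.75 ± 0.33), Snora31 (-0.42 ± 0.15) and Snora23 (-0.36 ± 0.14) were the others at an unadjusted p under 0.05.

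In the H/ACA class, 17 of 18 measured members were below 0, with a median of -0.28 and 12 lower without overlap, beside 12% of all genes. In the C/D class, 14 of 20 were below 0, with a median of -0.07 and 3 lower without overlap, a share near that of all genes. The difference between the classes was not tested. Of the 5 spliceosomal and other small nuclear RNAs measured, all were below 0 and 4 were lower without overlap, beside 12% of all genes. Rnu12 (chr15:83149645-83149794), the U12 RNA of the minor spliceosome, had 6.59 and 6.96 at day 12, against 7.84, 7.82 and 7.59 at day 5 (-0.94 ± 0.21). Terc, the RNA template of telomerase, differed by -0.27 ± 0.28 and Rpph1, the RNA of RNase P, by -0.21 ± 0.15. Rn7sk and Rmrp differed less, by -0.08 and -0.05, and Rmrp stood at 0.08 without day 12 replicate 1.

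Among the small nucleolar and Cajal body RNAs, the average of day 5 replicates 1 and 2 stood at the upper end of the series. It was the highest of the 14 samples in 26 of the 40 (65%), beside 3.67% of all genes tested, while day 5 replicate 3 was the highest in 0. In 7 of the 40 (17.5%) the day 5 samples were the 2 highest, beside 0.768% of all genes. A day 12 sample was the lowest in 0 of the 40. The mean deviation of the list was 0.22 and 0.12 on the day 12 arrays, against 0.52, 0.51 and 0.24 on the day 5 arrays, so that day 5 replicate 3 lay close to the first day 12 array. The mean rank of the day 12 samples was 9.65 of 14, above the middle. For Snora3 the mean log2 signal was 8.45 in sham and 9.71, 9.03, 10.56, 9.52 and 9.00 at days 1, 3, 5, 12 and 26, and for Rnu12 it was 6.29 in sham and 7.64, 6.36, 7.71, 6.78 and 6.26.

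**Figure D3:**
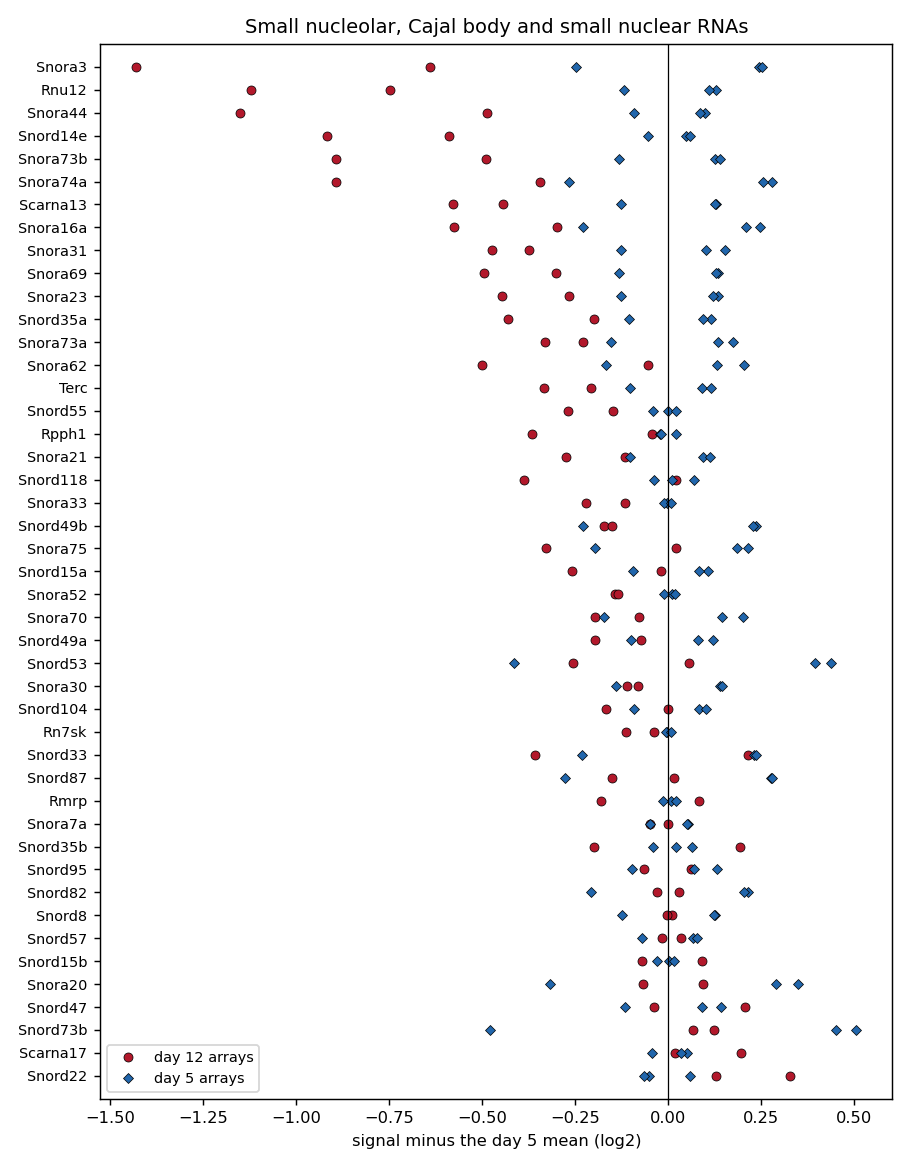
Log2 signal minus the mean of the day 5 samples (horizontal axis) for the 45 small RNAs measured, ordered by their difference; circles are day 12 arrays and diamonds day 5 arrays. In the upper rows both day 12 arrays lie left of all 3 day 5 arrays, down to -1.43 for the lower array of Snora3.

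Genes that span a small RNA by RefSeq positions were mostly nearer to 0 or above it, where they were measured. A spanning gene was measured for 19 of the 40 small RNAs, and in 12 of these 19 pairs the small RNA was below 0 and below its spanning gene. Of the 16 small RNAs lower without overlap, only 6 had a measured spanning gene. Those of Snora73b, Scarna13 and Snora44 were not measured. The 17 spanning genes had a median difference of 0.02, and 12 of them were above 0. Rpl27a, the ribosomal protein gene around Snora3, had 9.54 and 9.45 at day 12, against 9.33, 9.33 and 9.28 at day 5 (0.19 ± 0.10), and Hspa8, a heat shock cognate gene around Snord14e, differed by 0.08 ± 0.06. Snhg5, a host transcript of small nucleolar RNAs whose spliced product makes no known protein, was lower, at 5.36 and 5.45 at day 12, against 6.05, 6.06 and 6.05 at day 5 (-0.65 ± 0.16). Among 57 cytosolic ribosomal protein genes, 46 were above 0, 19 were higher and 2 lower without overlap, beside 11.4% and 12% of all genes, and the median was 0.09, which was 0.03 without day 12 replicate 1.

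Genes that glucocorticoids are known to induce were lower at day 12 in part. Of 19 measured, 4 were at an unadjusted p under 0.05, all lower, beside 1.5% of all genes. The 4 include Pdk4, which is also counted among the clock output genes above. Per1 and Klf15 belong to this list and to the clock lists as well. Without overlap, 6 were lower and 1 higher, beside 12% and 11.4% of all genes, and the median was -0.10. Zbtb16, a transcriptional repressor, had log2 signals of 8.72 and 8.41 at day 12, against 9.52, 9.48 and 9.78 at day 5 (-1.08 ± 0.32, SE). The metallothionein Mt1, which binds zinc, had 10.43 and 10.69 at day 12, against 10.83, 10.82 and 10.90 at day 5 (-0.30 ± 0.09). Its neighbour Mt2 overlapped, at 10.72 and 11.56 on the day 12 arrays, against 11.66, 11.66 and 11.52 on the day 5 arrays (-0.45 ± 0.19). With day 12 replicate 2 left out, Mt2 alone passed, at -0.87 (limma, adjusted p = 0.00948), a fit that leaves 1 day 12 array and assumes that it varies like the other groups, and with day 12 replicate 1 left out it stood at -0.03.

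The list as a whole rests on the same array: its median was -0.42 without day 12 replicate 2 and -0.02 without day 12 replicate 1. Fkbp5, a binding partner of the glucocorticoid receptor, had 5.74 and 6.11 at day 12, against 6.33, 6.30 and 6.73 at day 5 (-0.60 ± 0.34). For Mt1, Mt2 and Fkbp5, replicate 1 of day 12 was the lower array, and for Zbtb16 it was replicate 2.

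Outside these lists, the smallest unadjusted p among lower genes after Dbp and Ciart belonged to Arrdc2, an arrestin-domain gene, at 5.69 and 5.94 at day 12, against 6.84, 6.79 and 7.22 at day 5 (-1.20 ± 0.25, SE). Next came Chd6, a chromatin remodeller (-0.76 ± 0.17, with -0.17 by its second probe set), Nr0b2, the nuclear receptor SHP (-0.77 ± 0.17), Rnf144b (-0.64 ± 0.15), and Gin1 (-0.47 ± 0.11). On the higher side stood Jak1, a kinase of cytokine receptors, at 9.23 and 9.35 at day 12, against 8.88, 8.86 and 9.04 at day 5 (0.34 ± 0.09). Stmn1, which destabilises microtubules, had 8.26 and 8.46 at day 12, against 7.68, 7.68 and 7.79 at day 5 (0.63 ± 0.17). Adam19, a membrane protease (0.53 ± 0.14), Parn, a poly(A) ribonuclease (0.46 ± 0.13), and Prox1, a homeobox factor (0.35 ± 0.10), were among those that followed. None of these groups overlapped, and all of these genes had an adjusted p of 0.9998.

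Genes of cardiomyocyte work were near 0 as groups. The median was -0.01 over 31 sarcomere and Z-disc genes, -0.04 over 18 calcium handling genes and 0.02 over 32 genes of fatty acid uptake and oxidation, and it was -0.02 and -0.03 over the 43 and 52 genes of respiratory complex I and of complexes II to V. Without day 12 replicate 1 the last 2 medians were -0.15 and -0.12, and without day 12 replicate 2 they were 0.11 and 0.06. The same omissions gave 0.05 and -0.12 for calcium handling, and -0.05 and 0.07 for fatty acid genes. Without overlap, 5 sarcomere and Z-disc genes were higher and 3 lower, beside 11.4% and 12% of all genes. These counts were 1 and 4 for calcium handling and 5 and 2 for fatty acid genes. They were 1 and 2 for complex I and 2 and 6 for complexes II to V. In 3 other lists the groups also did not overlap for some genes. Of 27 ion channel and gap junction genes, 3 were higher, near the 11.4% of all genes, and 8 lower, beside 12%. These counts were 1 and 5 for 24 cardiac transcription factors, and 2 and 3 for 14 natriuretic, fetal or stress genes. The list medians were -0.06, -0.06 and -0.03. Kcnh2 and Kcnj2 from the first list, Ppara from the second and Rcan1 from the third were among the genes without overlap. Kcnh2, a channel of the rapid repolarising potassium current, had 8.05 and 8.02 at day 12, against 8.36, 8.37 and 8.28 at day 5 (-0.29 ± 0.11). Kcnj2, an inward rectifier that holds the resting potential, differed by -0.30 ± 0.14, and Ppara, a receptor that drives fatty acid oxidation genes, by -0.35 ± 0.12. Rcan1, a calcineurin inhibitor that calcineurin itself induces, was higher by 0.27 ± 0.10.

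Chaperones of the endoplasmic reticulum, which fold proteins on the way to the cell surface, had a median of 0.10 over 22 genes, which was 0.25 without day 12 replicate 1 and -0.06 without day 12 replicate 2. Sdf2l1 had 7.14 and 7.50 at day 12, against 6.96, 6.94 and 6.89 at day 5 (0.40 ± 0.18), whereas Hspa5, the main HSP70 of that compartment, was at 10.42 and 10.65, against 10.56, 10.55 and 10.53. Of 23 targets of p53, the factor that answers DNA damage, 1 was at an unadjusted p under 0.05, near the 2.5% of all genes. The median was -0.01. That gene, Plk2, a stress-induced kinase, had 6.27 and 6.52 at day 12, against 5.67, 5.76 and 5.73 at day 5 (0.67 ± 0.28). The heat shock gene Dnajb1 was lower but far apart between its arrays, at 6.91 and 8.17, against 9.22, 9.23 and 8.32 (-1.23 ± 0.64).

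Markers of other cells followed replicate 2 of day 12. The labels state that the suspension may contain some inflammatory and endothelial cells, and in bulk RNA fewer cells of a type and less RNA per cell cannot be told apart. All 17 endothelial markers were above 0 at day 12, with a median of 0.25, but their mean deviation was -0.15 on the first day 12 array and 0.57 on the second, against -0.24, -0.25 and 0.15 on the day 5 arrays. Without replicate 2 the median was -0.10, and without replicate 1 it was 0.74. The 20 macrophage and monocyte markers had mean deviations of -0.35 and 0.79 at day 12, against -0.05, -0.08 and -0.01 at day 5, and no member was free of overlap.

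The medians of inflammatory lists moved with the same array. Interferon-stimulated genes were above 0 in 22 of 23, with a median of 0.32, which was -0.09 without replicate 2 of day 12 and 0.65 without replicate 1. Without overlap, 5 of the 23 were higher and 0 lower, beside 11.4% and 12% of all genes. For 10 complement genes the median was 0.29, and it was -0.50 and 0.96 under the same omissions. Il1b, an inflammatory cytokine, had 5.16 and 6.33 at day 12, against 4.91, 4.78 and 4.72 at day 5 (0.96 ± 0.41), without overlap. The part of cell composition in these values was not tested. For the core clock list, mean deviations were -0.18 and -0.16 at day 12, against 0.17, 0.16 and 0.03 at day 5. They average over 3 genes above 0 and 10 below, and the part of cell composition was not tested there either.

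Some markers were lower at day 12, again by array. Cd8b1, a T cell co-receptor chain, had 4.23 and 6.52 at day 12, against 7.28, 7.30 and 7.08 at day 5 (-1.81 ± 0.60), while Cd3e, a defining T cell gene, was at 6.41 and 6.05, against 6.36, 6.37 and 6.34. Only 5 of the 14 T and NK cell markers on the array were above the signal filter. Of these, 4 were below 0 and 1 above, and 2 were lower without overlap, beside 12% of all genes. Their median was -0.64, which was -0.30 without day 12 replicate 1 and -0.94 without day 12 replicate 2. Cd8a differed by -0.64. Cd4 differed by -0.78, which was 0.08 without day 12 replicate 1. Myl4, the atrial myosin light chain, had 7.46 and 9.14 at day 12, against 9.43, 9.41 and 10.15 at day 5 (-1.48 ± 0.86), and Nppa, the atrial natriuretic peptide gene, overlapped at 9.22 and 10.60, against 10.09, 10.07 and 10.88. The part of atrial cells in the isolates was not tested.

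**Figure D4:**
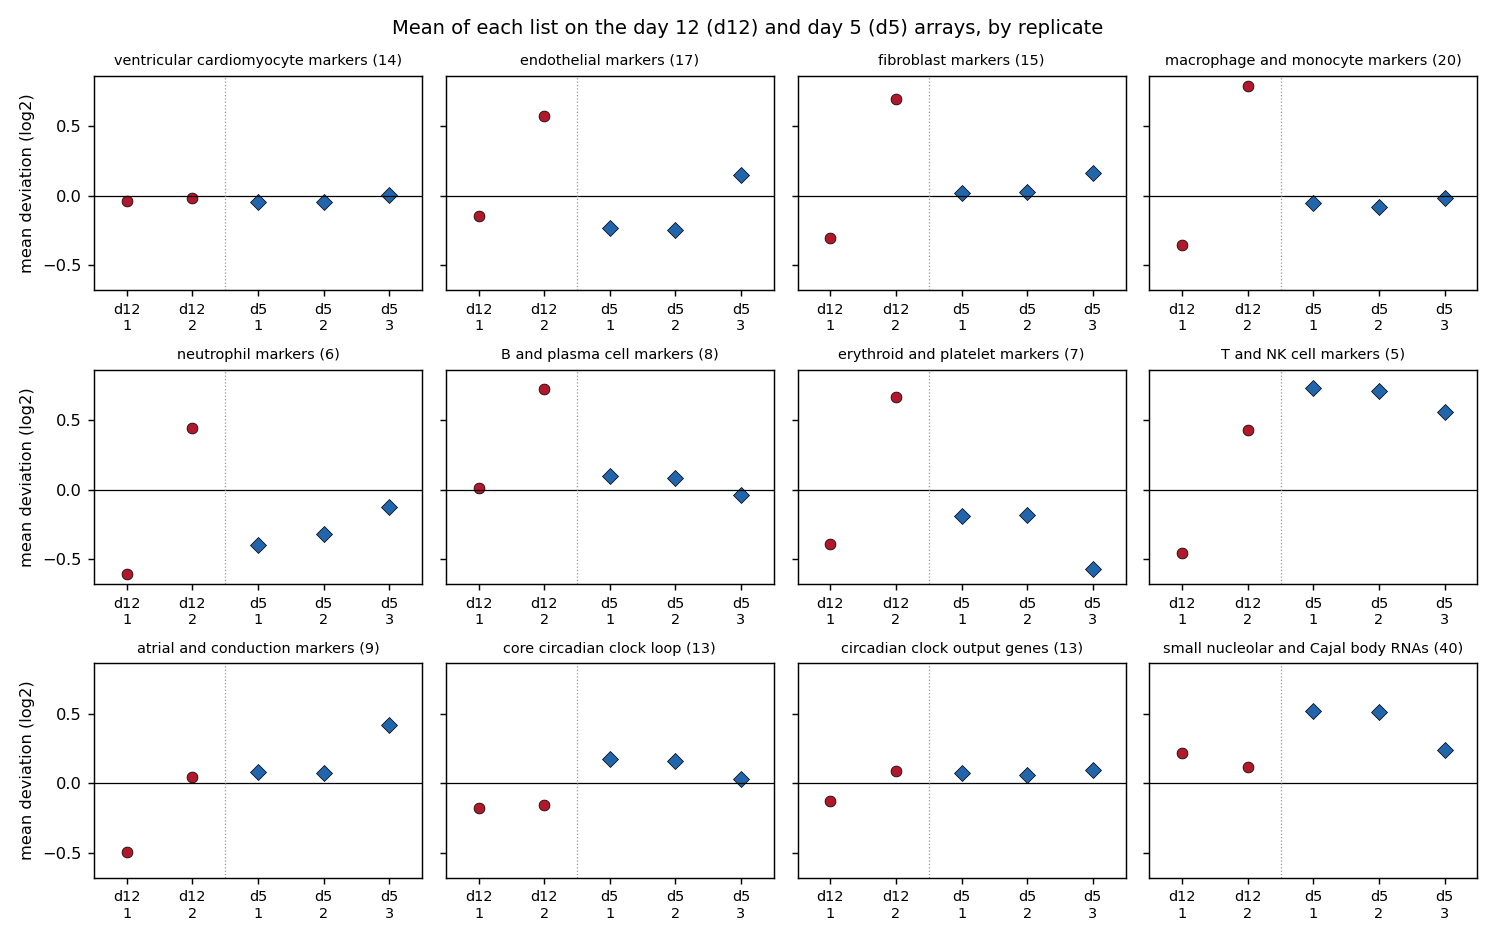
Mean deviation of each list from its genes' averages over the arrays (vertical axis, log2) on the 2 day 12 arrays (circles, left) and the 3 day 5 arrays (diamonds, right), with the number of genes measured in brackets. Lists of other cell types put the day 12 arrays far apart, for example -0.35 and 0.79 for macrophage markers. The core clock list puts both below all day 5 arrays.

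Other steps between neighbouring days, fitted in the same model, called few genes: 0.00826% (1 gene, Pde7a) between days 3 and 1, 0% between days 5 and 3, and 0% between days 26 and 12. The steps from day 3 to day 5 and from day 12 to day 26 share arrays with day 12 minus day 5. At an unadjusted p under 0.05 they held 694, 661 and 575 genes, against 302 for day 12 minus day 5.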

How the data were processed

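The values are log2 signals from Affymetrix arrays, as deposited in the series' value table; the submitters' processing notes name MAS5 with no version, and background correction and normalization are not given in the sources used here. Signals ran from 0.123 to 12.9 with array 95th percentiles of 9.11 to 9.16 and array medians of 4.90 to 5.16, and no further scaling was applied. With array medians made equal, the lowest adjusted p by limma was 0.374, against 0.146 in the main fit. Of 34760 probe sets, 21640 carried 1 gene symbol by the platform annotation, 1321 several and 11799 none; 21553 matched RefSeq genes of GRCm38.p6. The probe set with the highest mean over the 15 arrays stood for each gene, and means above 5.00, the median of all probe sets, left 12102 of 19937 genes.

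Linear models with a variance trend (limma 3.58.1 in R 4.3.3) were fitted to 14 samples in 6 groups (each proton day, and sham, which informs only the spread), with 8 residual degrees of freedom, and Benjamini-Hochberg adjustment ran over all genes at 0.05. For the 2 against 2 samples alone, an exact permutation test could not give a two-sided p below 0.333. Deviations of same-numbered samples from their group means correlated in both directions. Over 31 pairs the correlations ran from -0.722 to 0.457, with a median of 0.0014 and 9 above 0.1. In a group of 2 arrays the deviations mirror each other, so some pairs repeat the same value. The procedure was tested on simulated data with independent noise and the same spread in every group, which does not cover day 12 arrays that lie far apart. Members and the 51 gene lists were chosen with earlier results of these data known, so no list was tested; from lists set by name pattern, ribosomal protein kinases, a binding protein and host genes were left out after the values were seen. Named genes were up to 10 in each direction by smallest p, 2 per list by p, 34 fixed genes, and further members of lists described. Tables were made with Python 3.11.15 and pandas 2.3.3. In all, 28 alternatives were fitted, and 1 more added after seeing the data.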

Additional observations from a re-analysis of the deposited data

How the results depend on the processing

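The count of 0 genes past the adjusted threshold stood in 25 of 28 alternatives, among them other normalizations, signal filters and variance settings. With all 15 arrays as separate samples, which counts the near-identical day 5 arrays as 2, 2 genes passed (Dbp and Arntl). With a score of endothelial, fibroblast and macrophage markers as covariate, 4 passed (Ciart, Arntl, Rnu12 and Dbp). Leaving out 1 replicate at a time gave 0 to 1 genes, the 1 being Mt2 without day 12 replicate 2; each fit with 1 day 12 or 1 day 5 sample left assumes that it varies like the other groups. With a replicate block (15 arrays separate, without the sham day 3 sample), 0 genes passed. Correlations of same-numbered samples were of both signs and do not settle whether the numbers pair the samples. Over all 17380 probe sets above the median, named or not, chosen after seeing the data, 0 passed.

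Genes at an unadjusted p under 0.05 numbered 302, and 593, 507 and 873 with separate arrays, the marker score and the replicate block, 585 with no filter, 156 of 6132 genes with a filter at the 75th percentile, and 768 without day 12 replicate 1. The lowest adjusted p ran from 0.00948 to 0.9998, the highest with day 5 and day 12 samples alone; without day 5 replicate 3 it was 0.885. The differences of Arntl (0.90 to 1.07) and Dbp (-0.97 to -0.81) kept their sign in all 28 alternatives, and that of Ciart (-2.08 to -1.34) in 27, since it lay under the 75th percentile filter. The cause of these shifts was not tested.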
